A study of Mus musculus with 14 samples.

Results

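The Gab1 adaptor, 7 genes of the PI3K growth pathway and Pdk1 were followed in single mouse oocytes with and without Kdm1a (also called Lsd1), a histone demethylase. The genes were Gab1, Pik3ca, Pik3r1, Pdk1, Akt1, Akt2, Foxo3, Tsc1 and Tsc2, which are 9 of the 24064 genes in the count table. Gab1 was chosen by its level in the comparison described here, since it was nearly silent in control and high in mutant oocytes, so its difference between the groups is given as a description without a test. The other 8 were listed as genes of the pathway, although the mouse symbol Pdk1 names a mitochondrial kinase outside it. RNA from single ovulated oocytes was amplified as cDNA and sequenced, and the 14 libraries were taken as 10 oocytes because 4 oocyte names are each shared by 2 libraries. The control group held 4 wt/wt oocytes of strain C57BL/6J, called wt1, wt3, wt4 and wt5 here, and 1 f/f oocyte, C3, of a mixed B6;129 background, which carried floxed Kdm1a alleles and no Cre. The 5 mutants, called D1, D2, D3, D4 and D7, were labelled mko/mko, were also of a mixed B6;129 background and came from Kdm1a f/f::Zp3-cre females. In these females the Zp3 promoter drives Cre in growing oocytes and the first exon of Kdm1a is removed there. No age or animal of origin is given in the labels, so the p-values measure the spread between these oocytes, which may share a mother. Strain differs along with genotype when wt/wt oocytes are set against mutants, and only the f/f oocyte shares the mixed background of the mutants.

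GAB1 is a docking protein without enzyme activity that is phosphorylated below receptor tyrosine kinases and then binds the p85 subunit of PI3K and the phosphatase SHP2, which leads to the Ras and Erk kinases. PI3K makes the lipid PIP3 at the membrane, where the kinase encoded by Pdpk1 activates Akt, and Akt phosphorylates FoxO factors, which leave the nucleus, and TSC2, whose complex with TSC1 then no longer holds back mTOR complex 1. In mouse oocytes this pathway is known for its part in waking dormant primordial follicles, where KIT is the receptor and FOXO3 keeps the oocyte dormant. The oocytes sequenced here had been ovulated, long after that step.

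Pik3r1 was the member other than Gab1 that passed the test for a difference between the groups, and like Gab1 it was higher in mutant oocytes. The bases upstream of the starts of Gab1 and Pik3r1 are therefore shown first, as RefSeq gives them for GRCm38.p6 (mm10), 5′ to 3′ on the strand of the gene. Each is the 250 bases before an annotated start and holds no transcribed base of that start. Capitals mark the GC box GGGCGG and the TATA box TATAAA on either strand. For Gab1 the outer of 2 close starts is shown. Pik3r1 has 2 starts in the table used, the second inside the gene, and counts per gene cannot tell apart the transcripts that begin at each, which encode the long p85 form and shorter forms of the subunit.
Gab1, chr8:80880520-80880769, minus strand: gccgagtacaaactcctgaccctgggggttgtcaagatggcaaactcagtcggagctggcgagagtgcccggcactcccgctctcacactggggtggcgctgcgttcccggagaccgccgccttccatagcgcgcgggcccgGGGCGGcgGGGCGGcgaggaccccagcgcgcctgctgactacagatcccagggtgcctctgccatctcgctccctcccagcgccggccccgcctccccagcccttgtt
Pik3r1, upstream start, chr13:101768218-101768467, minus strand: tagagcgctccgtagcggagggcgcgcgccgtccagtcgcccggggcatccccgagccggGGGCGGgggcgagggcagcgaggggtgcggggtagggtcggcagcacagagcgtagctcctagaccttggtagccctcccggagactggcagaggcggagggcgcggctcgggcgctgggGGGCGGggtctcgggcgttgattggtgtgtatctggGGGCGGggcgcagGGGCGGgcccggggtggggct
Pik3r1, internal start, chr13:101692631-101692880, minus strand: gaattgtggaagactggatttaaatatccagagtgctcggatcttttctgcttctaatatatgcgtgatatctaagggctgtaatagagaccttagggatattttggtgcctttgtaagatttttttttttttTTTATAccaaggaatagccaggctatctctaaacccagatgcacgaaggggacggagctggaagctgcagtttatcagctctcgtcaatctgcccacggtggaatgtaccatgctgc
The Gab1 window held 2 GC boxes and 24 CpG dinucleotides, and 88.0% of the 32851 promoter windows of this length in RefSeq held fewer CpG. The window at the upstream start of Pik3r1 held 4 GC boxes and 30 CpG, with 94.1% of windows below it. The window at the internal start held 1 TATA box, no GC box and 6 CpG, which is the median of all windows. A GC box was present in 32.7% of all windows and a TATA box in 12.4%. Neither the E box CACGTG, in 6.02% of windows, nor the FoxO motif GTAAACA, in 3.17%, was found in the 3 sequences shown. A match of letters is a description of the sequence and does not show that a factor binds there.

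Before the members, the deleted gene was checked in each oocyte. Kdm1a lies on chromosome 4 of GRCm38 from 136550540 to 136602723 on the minus strand. It had 27 to 85 counts per wt/wt oocyte, 669 in C3 and at most 10 in a mutant, so the mutants were all below the controls. Total counts per oocyte were 1375187 to 6928548 in the control group and 2016701 to 6926076 in the mutant group, and 3 counts stood for 0.456 to 1.83 CPM. CPM, the usual depth-normalised count, was computed over library sizes scaled by TMM factors. It measures the share of a gene in the RNA of an oocyte, so less RNA from other genes cannot be told apart from more RNA of the gene. All 10 oocyte markers, among them Gdf9, Bmp15 and the zona pellucida genes, were detected, and their summed level was 19700 to 59400 CPM in control and 50000 to 115000 CPM in mutant oocytes. Of the 10, 5 were called higher in mutant oocytes (50%, beside 14.7% of all genes tested), which were Zp1, Zp2, Zp3, Gdf9 and Dppa3. Of 12 markers of the cumulus and granulosa cells that surround an oocyte, 9 were at 0 counts in every oocyte, with Amh, Foxl2, Fshr and Inha among them. The summed level of the 12 was 18.8 to 66.9 CPM in control and 81.6 to 149 CPM in mutant oocytes, and Cyp19a1, called higher in mutant oocytes, made up most of the latter. The other 2 detected markers did not follow it. Nr5a2 had 7 to 22 counts in control and 3 to 13 in mutant oocytes (log2 fold change −1.60, SE 0.68, adjusted p = 0.0916 by edgeR), and Has2, not tested, had 0 to 14 and 0 to 1 counts. The part of these marker differences in the results below was not tested.

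Gab1 was barely detected in control oocytes and was among the more abundant genes of mutant oocytes. The gene lies on chromosome 8 from 80764438 to 80880519 on the minus strand. It had 5, 11, 4 and 0 counts in wt1, wt3, wt4 and wt5 and 20 counts in C3. It had 490, 570, 1324, 1107 and 158 counts in D1, D2, D3, D4 and D7. The lowest mutant oocyte, D7, was thus well above the highest control oocyte, and the groups were far apart. In CPM the control oocytes lay at 2.76, 4.75, 1.64, 0 and 4.44. The mutant oocytes lay at 269, 347, 472, 168 and 78.8 CPM. The f/f oocyte fell between the lowest and highest wt/wt oocytes and below each mutant oocyte with which it shares a strain background. The mean was 2.72 ± 1.98 CPM (SD, n = 5) in control and 267 ± 153 CPM (SD, n = 5) in mutant oocytes, a ratio of 98.2, and the fitted log2 fold change was 6.56 (SE 0.70). By this value Gab1 ranked 22 among the 9198 genes tested, and by mean CPM it moved from rank 7029 in control to rank 626 in mutant oocytes.

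**Figure D1:**
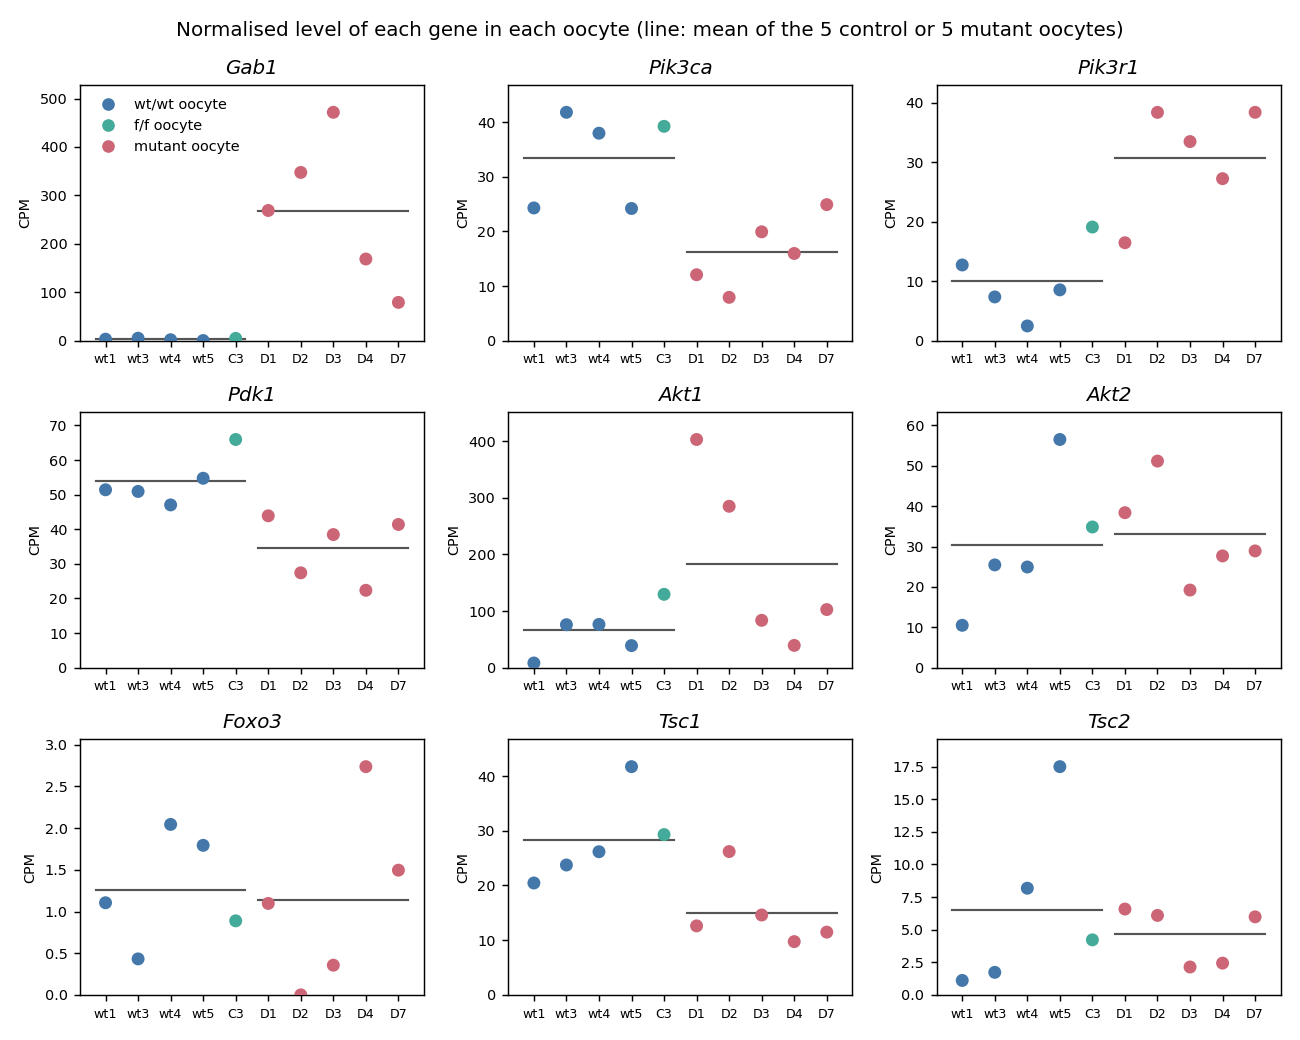
Level of the 9 member genes in each of the 10 oocytes, in CPM (vertical axes, each with its own scale from 0), with the mean of the 5 control and of the 5 mutant oocytes as a line. Points are single oocytes, coloured by wt/wt, f/f and mutant, and the panels of Gab1 and Pdk1 are those in which the 2 groups do not overlap, which for Pdk1 held in 7 of 18 alternative analyses.

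The size of the Gab1 level varied among the mutant oocytes themselves. D3 and D7, the highest and the lowest, were 472 and 78.8 CPM, and the SD of log2 CPM over the 5 mutant oocytes was 1.00, which was wider than that of 74.7% of the genes tested. The 2 libraries of 1 oocyte differed less. They gave 331 and 520 CPM for D3, 139.7 and 171 CPM for D4, 73.3 and 68.2 CPM for D7, and 4.81 and 3.14 CPM for C3. The order of these oocytes was therefore the same in either library, with a ratio of 1.08 to 1.57 between the libraries of a pair. The count table has no row for the 2 genes annotated across Gab1 on the opposite strand, the antisense transcript Gm31105, which shares exon bases with it, and the pseudogene Gm7997, which does not. No use of strand in the counting is stated, so reads of the antisense transcript could have been counted as Gab1.

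**Figure D2:**
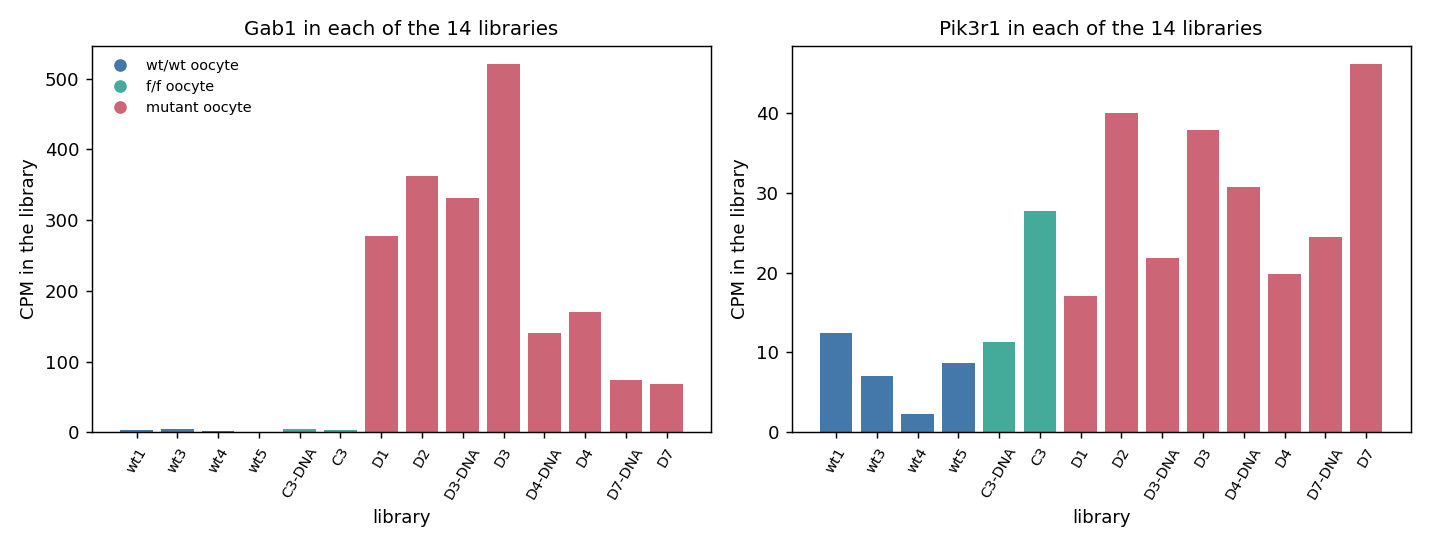
Level of Gab1 (left) and Pik3r1 (right) in each of the 14 libraries, in CPM from 0, as bars coloured by wt/wt, f/f and mutant. Names with and without DNA that otherwise match are the 2 libraries of 1 oocyte, and Gab1 stays at 4.81 CPM or below in the control libraries and at 68.2 CPM or above in the mutant libraries, while Pik3r1 differs more between libraries of 1 oocyte.

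Across all genes, 25.9% of the 9198 tested were called at an adjusted p under 0.05 and a log2 fold change of at least 1 in size, 14.7% higher and 11.2% lower in mutant oocytes. Of the 8 members other than Gab1, 1 was called (12.5%, or 14.3% of the 7 without Pdk1), which was Pik3r1. In 16.2% of all genes the mutant and control oocytes did not overlap, and among the 9 members this held for Gab1, which was chosen for it, and Pdk1. Of 18 alternative analyses in which it was examined, it held for Gab1 in 18, for Pik3ca in 13, for Pdk1 in 7, for Pik3r1 in 5 and for Tsc1 in 1. The median log2 fold change of the 8 was −0.27, and that of the 7 without Pdk1 −0.02, beside 0.17 over all genes tested. Each adjusted p is from the quasi-likelihood test of edgeR and was adjusted by the Benjamini-Hochberg method over the 9198 genes.

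Of the 2 PI3K subunits among the members, the regulatory one rose, and the catalytic one was lower in 4 of 5 mutant oocytes than in any control oocyte without passing the test. Pik3r1, on chromosome 13 from 101680563 to 101768217 on the minus strand, encodes the p85α regulatory subunit, the protein that GAB1 binds. Its level was 12.7, 7.34, 2.45 and 8.52 CPM in the wt/wt oocytes and 19.1 CPM in C3, against 16.5, 38.4, 33.5, 27.2 and 38.4 CPM in D1, D2, D3, D4 and D7. Each mutant oocyte was above each wt/wt oocyte, while the f/f oocyte lay above the wt/wt oocytes and within the mutant range. Pik3r1 had a log2 fold change of 1.60 (SE 0.49), with means of 10.02 ± 6.25 and 30.8 ± 9.23 CPM (SD, n = 5 each) and an adjusted p of 0.0265 by edgeR. The call was lost in 6 of 20 alternative analyses, which included leaving out wt3, wt4 or D2, where the adjusted p was 0.0625, 0.0517 and 0.0574. Both libraries of an oocyte agreed less well for Pik3r1 than for Gab1, at 11.3 and 27.8 CPM in C3.

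Pik3ca encodes the catalytic subunit p110α and lies on chromosome 3 from 32397671 to 32468486 on the plus strand. It stood at 24.3, 41.9, 38.03, 24.2 and 39.3 CPM in wt1, wt3, wt4, wt5 and C3 and at 12.1, 7.92, 19.9, 16.0 and 24.9 CPM in the mutant oocytes. D7 was the mutant oocyte that reached into the control range, and the other mutant oocytes were below every control oocyte. Its log2 fold change of −1.05 (SE 0.40, adjusted p = 0.0636 by edgeR) did not pass the test. It passed in 4 of 20 alternative analyses, DESeq2 and library totals among them.

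Pdk1 had the lowest spread of the members in control oocytes, with an SD of log2 CPM of 0.18. In the mouse this symbol names pyruvate dehydrogenase kinase 1, a mitochondrial enzyme that slows the entry of pyruvate into the citric acid cycle, and the Akt-activating kinase that is also called PDK1 is encoded by Pdpk1. Pdk1, on chromosome 2 from 71873224 to 71903858 on the plus strand, was at 51.4, 50.9, 47.0, 54.7 and 65.9 CPM in control and at 43.9, 27.4, 38.5, 22.4 and 41.4 CPM in mutant oocytes. The highest mutant oocyte was below the lowest control oocyte, as in 8.09% of all genes tested, but in 11 of 18 alternative analyses the ranges of Pdk1 overlapped. Pdk1 had a log2 fold change of −0.64 (SE 0.33), under the size required for a call, and the adjusted p of 0.163 by edgeR did not pass either. For Pdpk1, on chromosome 17 from 24073680 to 24150924 on the minus strand, the control oocytes ranged from 33.2 to 164 CPM and the mutant oocytes from 24.4 to 76.9 CPM, which overlap. Its log2 fold change was −0.71 (SE 0.45, adjusted p = 0.248 by edgeR).

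Akt1 and Akt2 encode kinases that carry the signal from PIP3, and Akt1 was the most uneven member, with an SD of log2 CPM of 1.49 in control and 1.35 in mutant oocytes. Akt1, on chromosome 12 from 112653821 to 112674884 on the minus strand, was at 8.29, 76.0, 76.5 and 39.0 CPM in the wt/wt oocytes and 129.6 CPM in C3, and at 403, 285, 83.7, 39.4 and 103 CPM in the mutant oocytes. D1 and D2 were above every control oocyte, while D3, D4 and D7 were within the control range. The log2 fold change was 1.46 (SE 0.64, adjusted p = 0.102 by edgeR), and it was called in 3 of 20 alternative analyses. In 2 of these, which use the same samples, the f/f oocyte was left out. The 2 libraries of each named pair differed by 1.43 to 2.62 times for Akt1, more than for Gab1 in 4 of 4 pairs.

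Akt2, on chromosome 7 from 27591552 to 27640826 on the plus strand, ranged over about the same levels in both groups. It was at 10.5, 25.5, 24.9, 56.5 and 34.9 CPM in control and at 38.4, 51.2, 19.2, 27.7 and 28.9 CPM in the mutants, for a log2 fold change of 0.11 (SE 0.44, adjusted p = 0.873 by edgeR). Its sign turned in 5 of 20 alternative analyses, library totals among them.

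Foxo3 encodes the transcription factor that Akt keeps out of the nucleus, and it was close to the limit of detection. The gene lies on chromosome 10 from 42181841 to 42276755 on the minus strand. It had 2, 1, 5, 4 and 4 counts in wt1, wt3, wt4, wt5 and C3 and 2, 0, 1, 18 and 3 counts in D1, D2, D3, D4 and D7. At these counts no difference between the groups was detected, and the log2 fold change of −0.02 had an SE of 1.05 (adjusted p = 0.991 by edgeR).

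Tsc1 and Tsc2 encode the 2 partners of the complex that restrains mTOR complex 1. Tsc1, on chromosome 2 from 28641228 to 28691167 on the plus strand, was at 20.5, 23.7, 26.2, 41.7 and 29.3 CPM in control and at 12.6, 26.2, 14.6, 9.73 and 11.47 CPM in mutant oocytes. D2 was the mutant oocyte within the control range, and the other mutant oocytes were below it. Tsc1 had a log2 fold change of −0.93 (SE 0.41, adjusted p = 0.10 by edgeR), and it was called in 2 of 20 alternative analyses. Tsc2, on chromosome 17 from 24595816 to 24632630 on the minus strand, was lower and more scattered, at 1.11, 1.73, 8.18, 17.5 and 4.22 CPM in control and at 6.58, 6.09, 2.14, 2.43 and 5.98 CPM in mutant oocytes. For Tsc2 the log2 fold change was −0.52 (SE 0.71, adjusted p = 0.619 by edgeR), and wt5, the highest oocyte, set its sign, since without wt5 it was 0.29. Exons of Tsc2 overlap those of Pkd1 on the opposite strand, so reads of the 2 genes may not have been told apart.

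Set against each other per length, the members changed order mainly through Gab1, which was chosen for its difference between the groups. Levels were expressed as CPM per kb of the longest annotated transcript and ranked by the median of each group. In control oocytes the order from high to low was Akt1, Pdk1, Akt2, Pik3ca, Tsc1, Pik3r1, Tsc2, Gab1 and Foxo3, with Akt1 at 28.2, Gab1 at 0.554 and Foxo3 at 0.161 CPM per kb. In mutant oocytes it was Gab1, Akt1, Pdk1, Akt2, Pik3r1, Pik3ca, Tsc1, Tsc2 and Foxo3, with Gab1 at 53.9, Akt1 at 38.2 and Foxo3 at 0.160 CPM per kb. Neighbours in the control order all overlapped in range, so no step of that order exceeded the spread between oocytes. In the mutant order the ranges of Akt1 and Pdk1 and those of Tsc1 and Tsc2 were apart, and the other neighbours overlapped, Gab1 and Akt1 included. Gab1 kept rank 8 in control and rank 1 in mutant oocytes when transcript length was capped at 3 kb, since this amplification covers mostly the 3′ end of transcripts. Other members did change order under this cap. In control oocytes the medians of Pik3ca and Tsc1 were 12.7 and 8.72, above Akt2 at 8.49. In mutant oocytes Pik3r1 at 11.2 was above Akt2 at 9.64. The lowest mutant value of Akt1 and the highest of Pdk1 were both 14.6 CPM per kb.

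**Figure D3:**
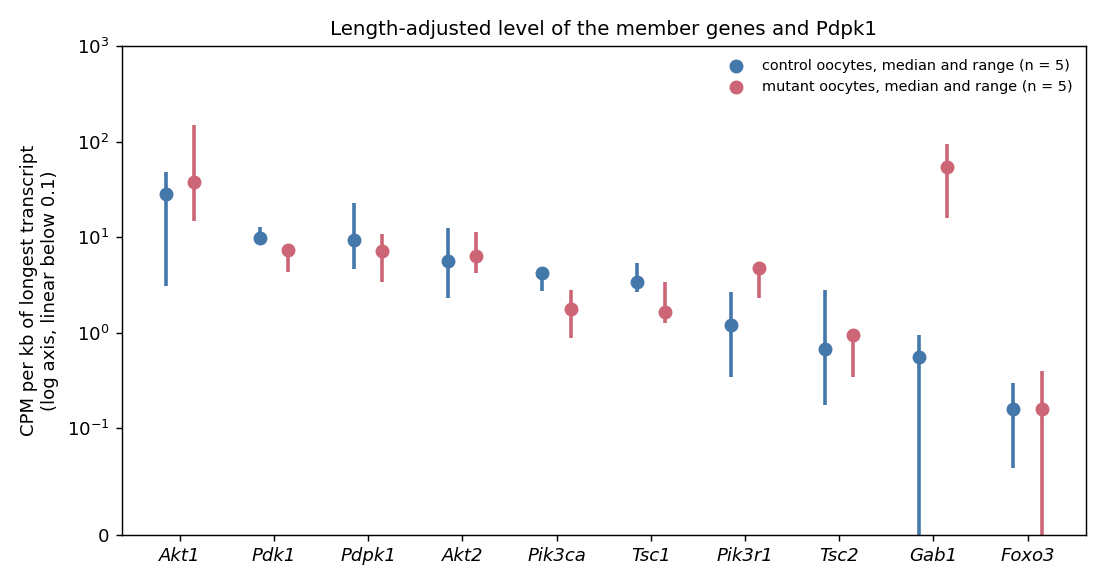
Level of the 9 members and of Pdpk1 in CPM per kb of the longest transcript (vertical log axis, linear below 0.1), ordered by the control median. Points are medians and lines the range over 5 control and 5 mutant oocytes, and Gab1 goes from a median of 0.554 to 53.9 while the ranges of the 2 groups overlap for the other genes except Pdk1, whose ranges are apart in this scaling.

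The genes with a profile most like that of Gab1 were found by the root mean square difference of log2 CPM over the 10 oocytes, each gene centred on its own mean. They were Ciart at 0.65, Fxyd6 at 1.03, Wdr70 at 1.27, Unc93b1 at 1.28 and Wbp5 at 1.37, against a median of 3.33 over all genes. Since this measure follows the contrast by which Gab1 was chosen, their difference between the groups is not tested. Ciart, a repressor of the circadian clock, was nearest, at 0 to 2.22 CPM in control and at 76.8, 129, 103, 35.6 and 41.9 CPM in D1, D2, D3, D4 and D7. Like Gab1, it was higher in D1, D2 and D3 than in D4 and D7. When genes were ordered by Spearman correlation with Gab1 over the 10 oocytes instead, Ciart was the one of the 5 that stayed among the first 5.

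The rest of the pathway was read from 8 lists with 114 genes, of which 82 had enough counts to be tested. Of the 82, 17 were called (20.7%, beside 25.9% of all genes), 6 of them higher in mutant oocytes (7.32%, beside 14.7%) and 11 lower (13.4%, beside 11.2%). By list, where 6 to 19 genes were tested, the share called ranged from 7.69% to 42.9%. The median log2 fold change of the 82 was −0.13 beside 0.17 over all genes. With counts scaled by library totals instead of TMM factors, 3 were higher and 20 lower. The groups did not overlap in 9 of the 82, with mutant oocytes above in 3 and below in 6, which is 11% beside 16.2% of all genes for both directions and 7.32% beside 8.09% for below.

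**Figure D4:**
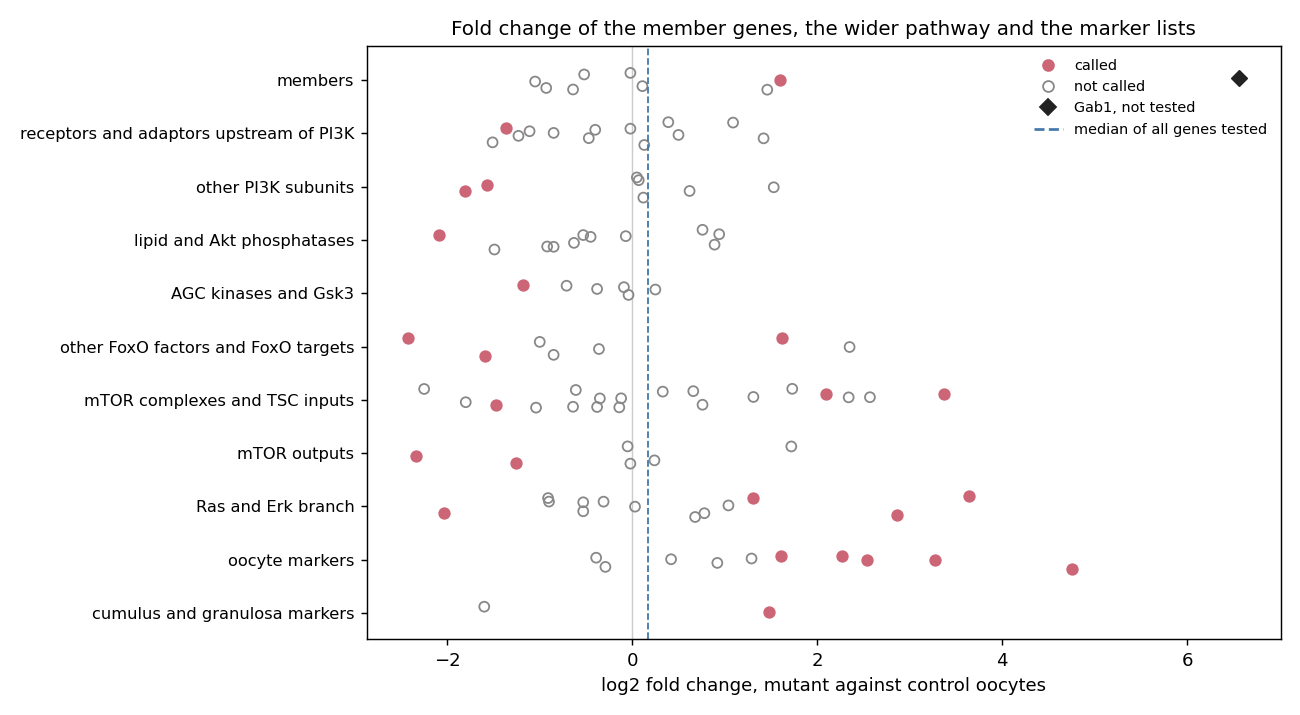
Log2 fold change, mutant over control (horizontal axis) for each tested gene of the members, of the 8 pathway lists and of the marker lists (rows, with a small vertical scatter). Filled points were called, open points were not, the diamond is Gab1, which was not tested, and the dashed line is the median of all genes at 0.17. Gab1 at 6.56 lies to the right of every other gene shown.

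Among receptors and adaptors upstream of PI3K, 13 of 22 genes were tested, and 1 was called, which was lower. This was Fgfr2, a receptor for fibroblast growth factors, at 142, 143, 126, 91.1 and 80.1 CPM in control and 27.4, 54.8, 44.9, 26.9 and 70.3 CPM in mutant oocytes. The groups did not overlap, and the log2 fold change was −1.37 (SE 0.37, adjusted p = 0.0136 by edgeR). The call of Fgfr2 was lost in 1 of 20 alternative analyses (adjusted p = 0.0526 by edgeR). There every library was its own sample, with the library number in the labels as a block. Kit, the receptor for the granulosa cell ligand KITL, was at 100.1 to 241 CPM in control and 87.7 to 209 CPM in mutant oocytes (log2 fold change −0.47, SE 0.36, adjusted p = 0.357 by edgeR). The nearest relative of Gab1, Gab2, was low in both groups, at 1.64 to 3.87 and 2.49 to 12.5 CPM. Its log2 fold change was 1.09 (SE 0.62, adjusted p = 0.203 by edgeR), and Gab3 had at most 5 counts in an oocyte. Met, Erbb2, Erbb3, Erbb4, Irs1 and Irs2, receptors and adaptors that act beside Gab1 in other cells, had no count in any oocyte.

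Of the other PI3K subunits, 7 of 12 were tested, and 2 were called, both lower. Pik3c2a, a class II PI3K, was at 237, 212, 274, 133 and 68.8 CPM in control and 32.4, 39.6, 52.0, 49.4 and 89.8 CPM in mutant oocytes. The f/f oocyte was below each wt/wt oocyte and within the mutant range. The log2 fold change was −1.81 (SE 0.42, adjusted p = 0.00615 by edgeR). Pik3cb, which encodes p110β, was at 28.7, 35.4, 33.5, 31.0 and 18.4 CPM in control and 3.29, 25.6, 5.70, 4.87 and 10.97 CPM in mutant oocytes (log2 fold change −1.57, SE 0.53, adjusted p = 0.0378 by edgeR). Here too C3 was lower than the wt/wt oocytes, and D2 was the mutant oocyte above it. The call of Pik3cb was lost in 9 of 20 alternative analyses, among them leaving out any oocyte except C3 and D2, where the adjusted p was 0.0624 to 0.102. Without D2, the highest mutant oocyte for Pik3cb, the log2 fold change was −2.26. Pik3cd, which encodes p110δ, was singled out after its values were seen. It was at 3.32, 2.59, 15.5, 11.7 and 24.6 CPM in control and at 74.0, 25.6, 16.7, 40.3 and 13.0 CPM in mutant oocytes and did not pass the test (log2 fold change 1.53, SE 0.62, adjusted p = 0.0754 by edgeR).

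The makeup of the p110 subunits, chosen after the values were seen and given without a test, shows these differences per length. Of the summed level of Pik3ca, Pik3cb and Pik3cd per kb, Pik3cd took 20.7% ± 14.4 (SD, n = 5) in control and 61.3% ± 21.0 in mutant oocytes, and Pik3cb took 44.1% ± 12.9 and 17.3% ± 14.6. The f/f oocyte, at 40.8% Pik3cd, was above the wt/wt oocytes and above D7 at 37.0%. These shares used full transcript lengths, 8.917 kb for Pik3ca, 6.478 kb for Pik3cb and 4.921 kb for Pik3cd. Under a cap at 3 kb all would be divided by the same length, and the share of Pik3cd would be lower.

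**Figure D5:**
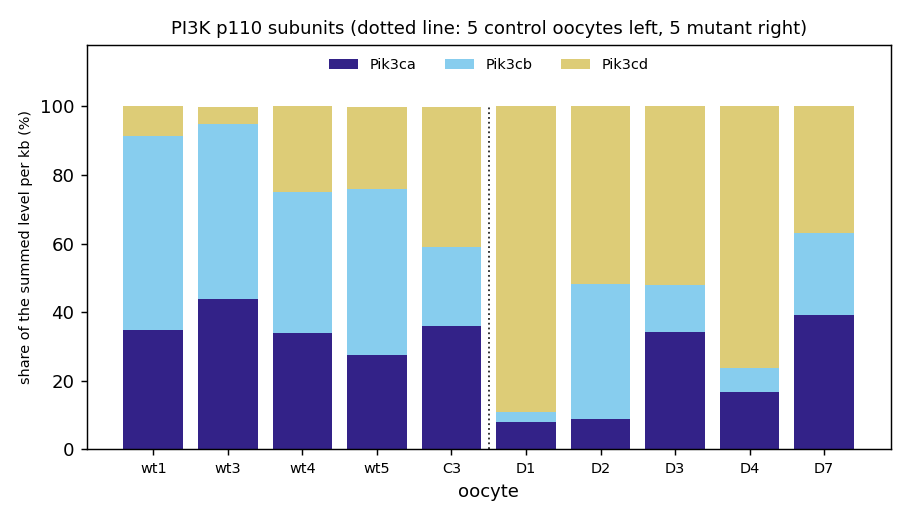
Share of Pik3ca, Pik3cb and Pik3cd in their summed level in CPM per kb (vertical axis, in percent) in each of the 10 oocytes. Stacked bars stand for single oocytes, control to the left and mutant to the right of the dotted line, and the mean share of Pik3cd goes from 20.7% to 61.3%.

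Phosphatases that oppose PI3K and Akt gave 1 call among 11 tested. The called gene was Ppp2r1b, a scaffold subunit of protein phosphatase 2A, at 30.4, 29.4, 35.6, 16.6 and 34.2 CPM in control and 11.52, 9.75, 7.83, 2.74 and 2.99 CPM in mutant oocytes. They did not overlap, and the log2 fold change was −2.09 (SE 0.49, adjusted p = 0.00664 by edgeR). Its call was lost in 1 of 20 alternative analyses, the same as for Fgfr2 (log2 fold change −1.21, adjusted p = 0.176 by edgeR). The other scaffold subunit, Ppp2r1a, was singled out after its values were seen. It was more abundant, at 129 to 332 CPM in control and 186 to 531 CPM in mutant oocytes. Ppp2r1a was not called (log2 fold change 0.94, SE 0.37, adjusted p = 0.07 by edgeR).

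Among other FoxO factors and genes that FoxO factors are known to switch on, 7 of 12 were tested, 1 was higher and 2 were lower. Bcl2l11, which encodes the death-promoting protein BIM, was at 49.2, 104, 71.2, 77.2 and 61.3 CPM in control and 9.32, 18.9, 10.3, 7.91 and 21.9 CPM in mutant oocytes. The groups were apart, and the log2 fold change was −2.42 (SE 0.40, adjusted p = 0.000956 by edgeR). Ccng2, which encodes cyclin G2, had a log2 fold change of −1.59 (SE 0.55, adjusted p = 0.0421 by edgeR) over overlapping ranges of 9.99 to 85.7 and 8.19 to 18.9 CPM. Its call was lost in 9 of 20 alternative analyses. Without wt1, the oocyte at 85.7 CPM, the log2 fold change of Ccng2 was −1.03 (adjusted p = 0.173 by edgeR), and without wt3, wt4, D1, D2, D3 or D7 the adjusted p was 0.0586 to 0.0901. Cdkn1b, which encodes the cell cycle inhibitor p27, was higher, at 4.42, 3.88, 4.91, 10.3 and 2.44 CPM in control and 27.4, 10.97, 15.3, 18.3 and 7.48 CPM in mutant oocytes. Its groups overlapped through wt5 and D7 (log2 fold change 1.62, SE 0.53, adjusted p = 0.0338 by edgeR). The call of Cdkn1b was lost in 11 of 20 alternative analyses, with an adjusted p of 0.197 and a log2 fold change of 1.07 under library totals, and of 0.053 to 0.113 when wt1, wt3, wt4, C3, D1, D3 or D4 was left out. Of the list, Foxo4 and Foxo6 had at most 1 and 2 counts in an oocyte and were not tested. Foxo1 was abundant, at 644 to 2489 CPM in control and 538 to 1558 CPM in mutant oocytes. It was not called (log2 fold change −0.36, SE 0.42, adjusted p = 0.551 by edgeR).

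In the mTOR complexes and the inputs of TSC, 19 of 24 genes were tested, 2 were higher and 1 was lower. Both higher genes encode γ subunits of AMPK, the energy sensor that activates TSC2. Prkag1 was at 0, 4.32, 2.05, 4.04 and 2.22 CPM in control and 19.2, 8.53, 6.41, 14.2 and 6.48 CPM in mutant oocytes, with the groups apart (log2 fold change 2.09, SE 0.67, adjusted p = 0.0317 by edgeR). Its call was lost in 5 of 20 alternative analyses, among them library totals (adjusted p = 0.0972) and leaving out wt4 (0.0695), D1 (0.0951) or D4 (0.0574). Prkag2 was called as well (adjusted p = 0.0211 by edgeR), but its control oocytes had at most 0.449 CPM and its mutant oocytes 0.499 to 4.63 CPM, which is near the limit of detection. Mapkap1, which encodes the SIN1 subunit of mTOR complex 2, was lower, at 93.4, 322, 261, 310.4 and 266 CPM in control and 55.4, 65.2, 132, 66.8 and 134 CPM in mutant oocytes. The low oocyte wt1 overlapped the mutant range (log2 fold change −1.47, SE 0.40, adjusted p = 0.0149 by edgeR). Mtor itself was at 34.1 to 58.3 CPM in control and 32.3 to 42.2 CPM in mutant oocytes (log2 fold change −0.35, SE 0.33, adjusted p = 0.451 by edgeR).

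Of the outputs of mTOR, 6 of 11 were tested and 2 were lower. Rps6kb1, the S6 kinase that mTOR complex 1 activates, varied little within either group, at 21.0, 22.9, 29.0, 23.3 and 25.1 CPM in control and 8.78, 9.75, 11.8, 9.73 and 10.5 CPM in mutant oocytes. The groups were apart (log2 fold change −1.26, SE 0.37, adjusted p = 0.0219 by edgeR). The call of Rps6kb1 was lost in 4 of 20 alternative analyses, among them no filter on low counts (adjusted p = 0.0681) and leaving out wt4 (0.0536) or D1 (0.0517). Rps6, the ribosomal protein that this kinase phosphorylates, was at 71.3, 28.5, 13.9 and 38.6 CPM in the wt/wt oocytes and 1.33 CPM in C3, against 1.78 to 12.3 CPM in the mutant oocytes. The f/f oocyte was below all mutant oocytes, and each wt/wt oocyte was above them (log2 fold change −2.34, SE 0.74, adjusted p = 0.0302 by edgeR). The call of Rps6 was lost in 6 of 20 alternative analyses, with a log2 fold change of −1.77 (adjusted p = 0.101 by edgeR) without wt1 and an adjusted p of 0.0502 to 0.0651 without wt5, D1, D2 or D3. Ribosomal protein genes have many near-identical pseudogenes, so the Rps6 counts are uncertain.

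The Ras and Erk branch, the other arm below GAB1, gave 3 genes higher and 1 lower among 13 tested. These were 23.1% and 7.69%, beside 14.7% and 11.2% of all genes. Mapk3 and Hras were among the higher ones. Mapk3, which encodes ERK1, was at 10.5, 27.6, 9.81, 45.3 and 21.98 CPM in control and 641, 352, 102, 269 and 75.3 CPM in mutant oocytes. The groups were apart, with means of 23.0 ± 14.6 and 288 ± 229 CPM (SD, n = 5 each) and a log2 fold change of 3.64 (SE 0.61, adjusted p = 0.000958 by edgeR). The f/f oocyte was no higher than the highest wt/wt oocyte.

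Hras and Nras, which encode closely related Ras proteins, differed in opposite directions. Nras was at 121, 48.3, 48.7, 65.1 and 58.2 CPM in control and 12.6, 21.3, 15.3, 12.6 and 20.9 CPM in mutant oocytes, with the groups apart (log2 fold change −2.04, SE 0.38, adjusted p = 0.00186 by edgeR). Hras was at 0 to 1.78 CPM in control and at 19.2, 12.2, 0.712, 8.52 and 1.99 CPM in D1, D2, D3, D4 and D7 (log2 fold change 2.86, SE 0.87, adjusted p = 0.0245 by edgeR). D3 lay within the control range of Hras. The call of Hras was lost in 3 of 19 alternative analyses, among them without D1 (adjusted p = 0.0878 by edgeR) and without D2 (0.0534). It was also lost with every library as its own sample and the library number in the labels as a block (0.26). That number differs between libraries of the same oocyte.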

How the data were processed

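The authors filtered single-end reads, aligned them to mm10 with TopHat2 2.0.6 and counted unique alignments per RefSeq gene with HTSeq, for which the submitters' processing notes give version 0.5.3p9 and the paper's methods a later one. The deposited values are these raw counts, not normalized. The use of strand in counting is not given in the sources used here. Of the columns, Oo3C-DNA was taken as the library titled OoC3-DNA. Libraries sharing a name were summed, although the deposited descriptions number them as separate oocytes.

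Counts were tested in R 4.3.3 with edgeR 4.0.16 (glmQLFit, glmQLFTest, TMM, genotype alone) over 9198 genes, the top 60% by total count of 15432 with a count. Calls needed an adjusted p below 0.05 and a log2 fold change of at least 1 in size. Values on a log2 scale used a prior count of 2. Alternatives were DESeq2 1.42.0, other scalings, filters, controls and libraries, and each oocyte left out, where leaving out C3 and wt/wt oocytes alone as control are the same samples. The script was tested on simulated data. Coordinates came from GENCODE for GRCm38, matched by name for 22829 genes (94.9%), and promoters from RefSeq.

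The members and lists were chosen with earlier results of these data known. Besides the members and Kdm1a, the rule named Pdpk1, Gab2, Kit and Mtor, up to 2 higher and 2 lower called genes per pathway list with the smallest p, and the 5 genes most like Gab1. Some other genes that the rule or the lists hold are not reported here. Protein sequences were not used here. Total counts were 1375187 to 6928548 per oocyte. Precision was limited by the spread between oocytes (common biological coefficient of variation 0.609) and, for genes of few counts, by depth, and floors cover counting error only. Over the control and mutant libraries that share a number in the labels, the correlation of deviations from the group means was −0.128 to 0.0937. So few pairs cannot decide whether the numbers stand for a pairing of the samples.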

Additional observations from a re-analysis of the deposited data

How the results depend on the processing

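The log2 fold change of Gab1 was 6.23 to 7.42 in 20 alternatives (6.31 to 6.89 with 1 oocyte left out), and its rank by level, 8 in control and 1 in mutant oocytes, was the same with length capped at 3 kb or not corrected. The members called, 1 in the analysis described, were 2 with DESeq2 (Pik3ca and Pik3r1), with library totals (Pik3ca and Tsc1), without a filter (Pik3r1 and Akt1), with filterByExpr (Pik3ca and Pik3r1), with wt/wt oocytes alone as control (Pik3r1 and Akt1) and with every library as its own sample (Pik3r1 and Tsc1). There were 0 with 1 library per oocyte, and 0 to 2 with 1 oocyte left out. Pathway genes higher and lower, 6 and 11, were 3 and 20 with library totals, and 10 were higher with wt/wt oocytes alone. With 1 oocyte left out they were 2 to 10 and 6 to 15, the lowest counts, 2 and 6, being those without D1, while 10 were higher without C3, 3 higher without D4, and 7 lower without wt4 or D3. Library totals moved the median over all tested genes by −0.39 (log2), and 36.6% of called genes were then higher in place of 56.8%. Members with groups apart, 2, were 1 with every library as its own sample or 1 library per oocyte, and 2 to 4 with 1 oocyte left out (4 without D1). The genes changed: of 18 alternatives, Gab1 was apart in 18, Pik3ca in 13, Pdk1 in 7 and Pik3r1 in 5. With every library as its own sample and the library number in the labels as a block, 966 genes were called in place of 2384. Among them were 0 of the 8 members and 1 higher and 5 lower pathway genes, with Pik3r1 at an adjusted p of 0.0952 by edgeR. This block joins control and mutant libraries of the same number and does not join libraries of the same oocyte. The sign of Akt2 turned with library totals (−0.34), with every library as its own sample (−0.07), with that and the block (−0.21), and without wt1 (−0.11) or D2 (−0.10), with −0.11 to 0.50 when oocytes were left out in turn. The sign of Foxo3 turned with every library as its own sample (0.13) and without wt4 (0.19), wt5 (0.14), D2 (0.22) or D3 (0.19), and that of Tsc2 without wt5 (0.29). Tsc2 ranged from −0.79 to 0.29 with oocytes left out in turn and from −1.05 to 0.29 over 20 alternatives. Foxo3 was tested in 16 of the 20, where it ranged from −1.56 to 0.22, and from −0.26 to 0.22 with oocytes left out. It has no value without D4, which holds most of its mutant counts, nor with filterByExpr, 1 library per oocyte or thinned counts. The cause was not tested. Depth limits what can be said of Foxo3, Hras and Prkag2.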
